A study of Arabidopsis thaliana with 9 samples.

Results

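The libraries labelled release of the Arabidopsis thaliana mutant p5cs1-4 and of the wild type Col-0 (WT) were compared gene by gene. They are 2 of the 9 libraries of the series and were chosen by their sample titles. The other 7 are the control and labelled stress libraries of both genotypes and the 3 libraries of aba2-1, a mutant of ABA2 in the synthesis of abscisic acid (ABA). P5CS1 encodes Δ1-pyrroline-5-carboxylate synthase 1, the enzyme that commits glutamate to proline when water is short, and p5cs1-4 is a T-DNA insertion line of that gene. Only that 1 mutant line of P5CS1 was sequenced. Seedlings 7 days old, grown without sugar in continuous light, went for 96 h onto agar with polyethylene glycol at a water potential of -1.2 MPa. Those to be released then had 10 h on control medium. Control seedlings stayed at -0.25 MPa for the 96 h, and a further set was collected directly from the stress plates (labelled stress). RNA from whole seedlings of 3 experiments was pooled per group. Each group is thus 1 library, and no difference between these libraries has a replicate check or a p-value.

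Proline accumulates in Arabidopsis at low water potential and is broken down again in the mitochondrion once water returns, which ties its metabolism to the redox state of chloroplast and mitochondrion. Salicylate and jasmonate are hormones of defence. Salicylate, made in the chloroplast, acts through the receptor NPR1 and raises PR (pathogenesis-related) transcripts. Jasmonate, made from plastid lipids by lipoxygenases, allene oxide synthase and allene oxide cyclases, removes the JAZ repressors, whose own genes are among its early targets. The 2 pathways often oppose each other, with WRKY70 as 1 known node between them.

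The transcripts of both libraries went against the label release. RAB18, a dehydrin gene induced by drought and ABA, stood at 4950.3 CPM (reads on the gene scaled by the size of the library) in WT and 4778 CPM in p5cs1-4 labelled release, against 13.9 and 81.4 CPM in the libraries labelled stress. PRODH1, the proline dehydrogenase gene known to rise on release, stood at 25.5 CPM in WT and 20.12 CPM in p5cs1-4 labelled release, against 188 and 240 CPM in labelled stress. The names of the deposited tables and the sample titles also disagree on which libraries are stress and which are release. The libraries are therefore called by their label throughout, and which treatment they received cannot be settled here. The WT library held 8792987 reads on genes and the p5cs1-4 library 14580141. The green-tissue markers LHCA1, LHCB3, RBCS1A, RCA and PSAF summed to 7573 CPM in WT and 5184 CPM in p5cs1-4. The 10 root markers, 6 of which reached 5 CPM in either library, summed to 48.5 and 73.8 CPM. In whole seedlings, fewer cells of a type and less RNA per cell cannot be told apart.

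The mutated gene was read first. P5CS1 (AT2G39800, chromosome 2, 16598072 to 16603319, minus strand, TAIR10.1) stood at 3918 CPM in WT and 1199 CPM in p5cs1-4, which is 3.27-fold lower (95% counting interval 3.21 to 3.33). In the control it stood at 195 CPM in WT and 125 CPM in p5cs1-4, and in labelled stress at 74.1 and 174 CPM. The mutant was thus lower in the control and labelled release pairs and higher in the labelled stress pair. These counts are summed over the whole gene, so they do not say which part of the transcript was read. Intervals of a fold are exact, cover counting error between these libraries only, and take no account of the amplification of the reads.

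A gene was counted as different when its log2 ratio of CPM + 1 reached 1 either way (2-fold) and it had at least 5 CPM in either library, here called the floor. Of 16348 genes past the floor, 294 (1.8%) were at least 2-fold higher in p5cs1-4 and 218 (1.33%) lower, together 3.13%. Those that were higher were mostly weakly expressed, with a median of 3.67 CPM in WT and 10.9 CPM in p5cs1-4. Those that were lower had a median of 16.8 CPM in WT and 5.42 CPM in p5cs1-4. The share of higher genes among all counted was 57.4%, but 46.1% with a floor of 20 CPM and 69.4% when libraries were scaled to their totals. By the same ratio of CPM + 1, 21 genes were at least 8-fold lower and 6 at least 8-fold higher. The added 1 CPM shrinks a fold most where the smaller level is low, and its part in this split was not tested. Folds given below with an interval are ratios of CPM without the added 1, so they exceed those counted here. Most reads of 37 of the higher and 23 of the lower genes were shared with other loci, and of such genes PCC1 alone is named as a list example. Just inside the threshold lay ZFP6 at a log2 ratio of 1.002 and LACS1 at -1.002, and just outside it COBL9 at 0.997 and PERK10 at -0.996.

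**Figure D1:**
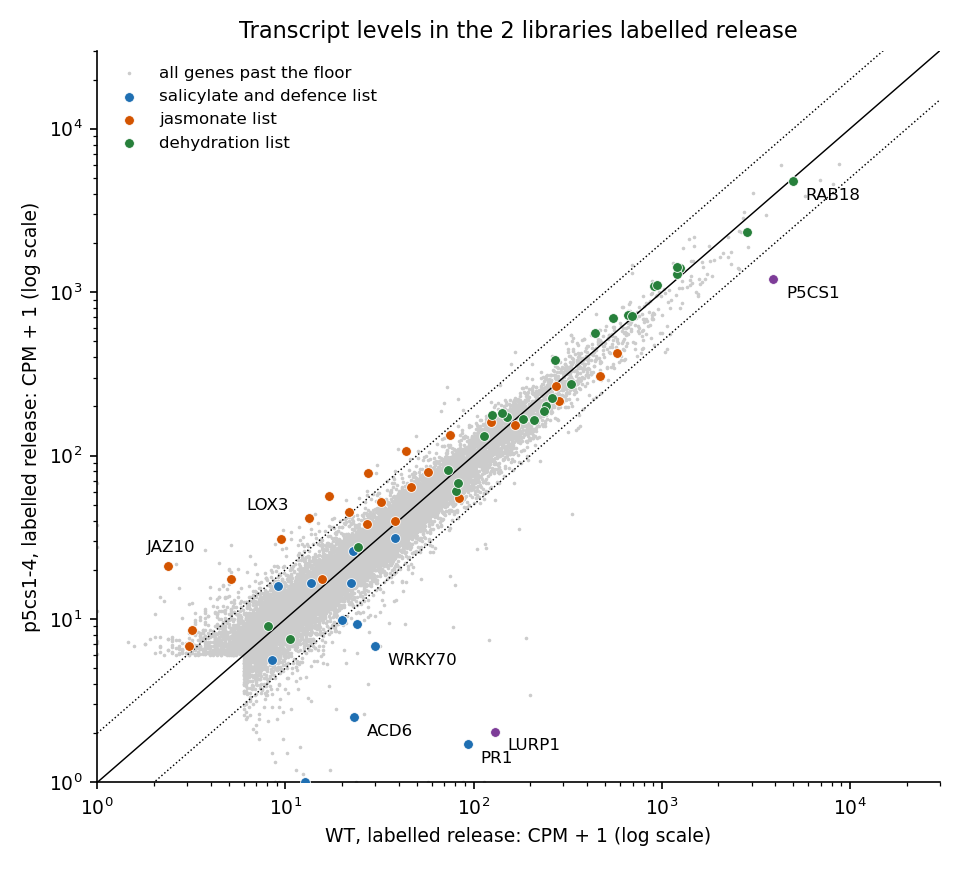
Each point is a gene past the floor, by its CPM + 1 in WT (x axis, log scale) and in p5cs1-4 (y axis, log scale), both labelled release, with the line of equality and dotted lines at 2-fold. Salicylate and defence genes (blue) reach far below the lower dotted line (PR1 at 92.0 and 0.719 CPM), jasmonate genes (orange) lie from above the upper one to below equality (JAZ9 at a log2 ratio of -0.62), and dehydration genes (green) follow the line of equality; LURP1 and P5CS1 are in purple.

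Some transcripts of the salicylate pathway and of defence were lower in p5cs1-4. Of 17 genes on that list 12 passed the floor, and 6 of the 12 were at least 2-fold lower and 0 higher, where 1.33% of all genes were lower. The median log2 ratio of the 12 was -0.80, against -0.02 for all 16348 genes. PR1, ACD6, PCC1 and FMO1 passed the floor through the WT library alone, which fixed their direction, so the count and the median describe the 12 and support nothing more. WRKY70, ICS1 and PR2, also at least 2-fold lower, were past 5 CPM in both libraries. The lowest log2 ratio on the list was that of PR1, -5.76, and the receptor gene NPR1 did not reach 2-fold. PR1 (AT2G14610, chromosome 2, 6241640 to 6242541, minus strand), the usual marker of the salicylate response, stood at 92.0 CPM in WT (801 reads) and 0.719 CPM in p5cs1-4 (11 reads), 128-fold lower (71.2 to 257). LURP1 (AT2G14560, chromosome 2, 6213617 to 6215932, plus strand), which is needed for full resistance to downy mildew, stood at 129 and 1.05 CPM, 123-fold lower (75.7 to 217). It is not on the list and was named as the gene with the lowest log2 ratio, -5.99, among those with a symbol and mostly unshared reads. LURP1 also passed the floor through the WT library alone. The 250 bases before the annotated start of LURP1 are shown because no other gene named by the rule had a lower ratio. They were read from the TAIR10.1 genome, 5′ to 3′ on the strand of the gene, and searched for TTGAC, the core of the W-box bound by WRKY factors. LURP1 holds 0 matches on either strand, so no letters are in capitals.
LURP1, chr2:6213367-6213616, plus strand: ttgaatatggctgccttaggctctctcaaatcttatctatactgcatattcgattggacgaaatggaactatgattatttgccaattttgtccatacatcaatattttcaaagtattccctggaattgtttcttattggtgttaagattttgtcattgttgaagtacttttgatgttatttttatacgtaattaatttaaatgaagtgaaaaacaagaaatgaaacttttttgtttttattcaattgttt

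TTGAC on either strand was found in 5 of 12 promoters of the defence list (41.7%), in 50.9% of 214 promoters of lower genes and 52.2% of 255 promoters of higher genes. It stood in 44.5% of all 32708 promoters of this length. The letters were chosen after the values were seen, and a match is not evidence of binding.

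Of the genes that act earlier in the pathway, ICS1, which makes the isochorismate from which most salicylate is formed, was at least 2-fold lower, at 23.0 CPM in WT and 8.36 CPM in p5cs1-4 (2.75-fold, 2.19 to 3.46). WRKY70 stood at 28.8 and 5.81 CPM, 4.96-fold lower (3.88 to 6.39). ACD6, an ankyrin-repeat membrane protein that promotes salicylate signalling, stood at 22.3 and 1.503 CPM, 14.8-fold lower (9.60 to 23.9). The β-1,3-glucanase gene PR2 stood at 18.9 and 8.82 CPM, 2.15-fold lower (1.70 to 2.72). PCC1 had 102 reads in WT and 0 in p5cs1-4, at least 59.8-fold lower taking 3 reads as the most a count of 0 allows in that library, but a fraction of up to 0.66 of its reads is shared with other loci. The regulators EDS1, PAD4, SAG101 and NPR1, and EDS5, which exports salicylate from the chloroplast, did not reach 2-fold. Their log2 ratios were 0.18 for EDS1, -0.42 for PAD4, 0.27 for SAG101, -0.30 for NPR1 and 0.80 for EDS5.

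The 9 libraries place these values. PR1 stood between 0.233 and 11.2 CPM in the other 8 libraries, so the WT library labelled release is the 1 that was high. LURP1 stood at 32.4, 12.5 and 129 CPM in the WT control, labelled stress and labelled release. In p5cs1-4 the levels were 39.8, 1.08 and 1.05 CPM. It was therefore near WT in the p5cs1-4 control and low in both p5cs1-4 libraries from stress plates. WRKY70 stood at 64.7, 63.4 and 28.8 CPM in WT and at 78.9, 9.58 and 5.81 CPM in p5cs1-4. Like LURP1, it was highest in the p5cs1-4 control and lower in both p5cs1-4 libraries from stress plates. The 2 genes did not share an order over the WT libraries. ACD6 stood at 38.7, 32.9 and 22.3 CPM in WT and at 87.3, 7.56 and 1.503 CPM in p5cs1-4. In the control pair the list leaned the other way, with 3 of 12 genes at least 2-fold higher in p5cs1-4 (3.82% of all genes were) and 0 lower. In the labelled stress pair 3 of 10 were lower (6.53% of all genes were) and 0 higher. The difference between pairs was not tested.

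**Figure D2:**
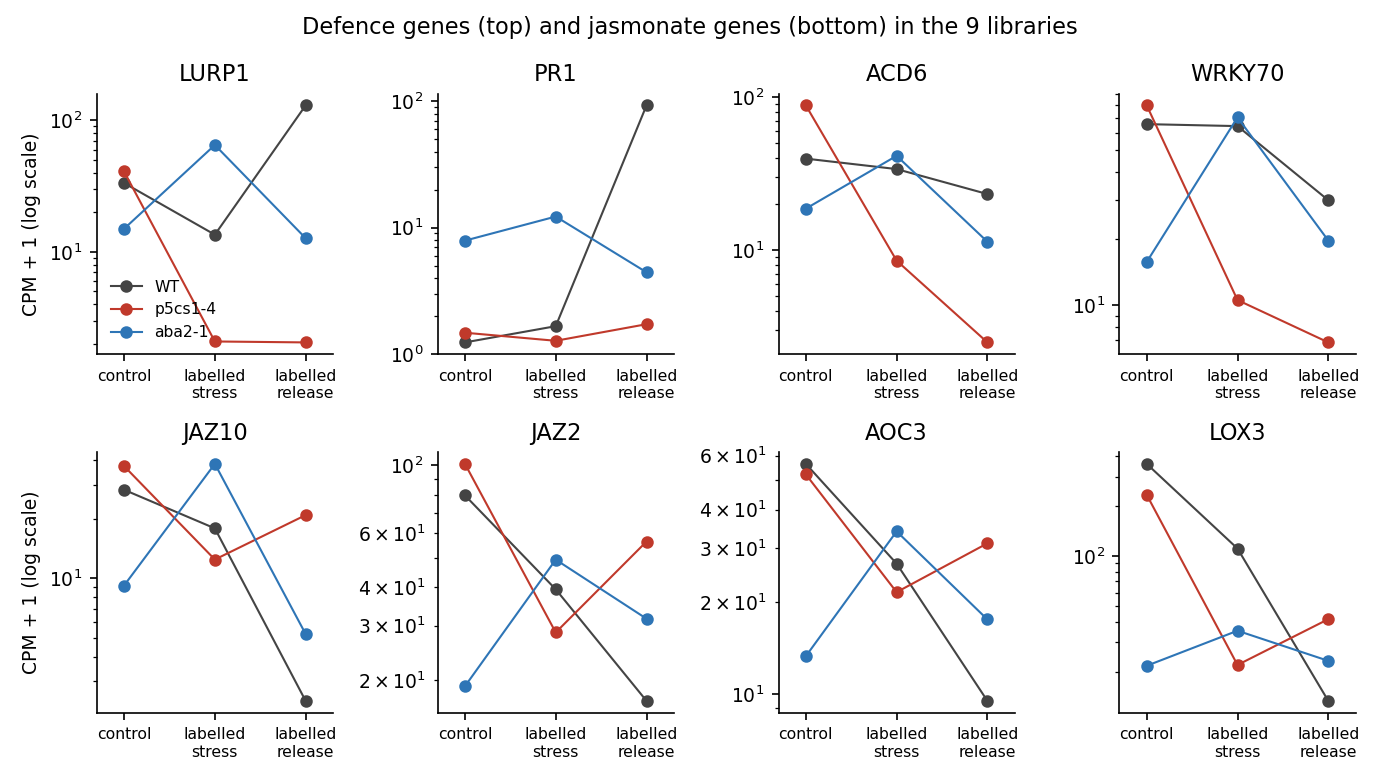
CPM + 1 (y axis, log scale) of 4 defence genes (top) and 4 jasmonate genes (bottom) in the 9 libraries, by treatment label (x axis), with 1 point for each library and lines that join a genotype. PR1 is high in 1 library, WT labelled release (92.0 CPM), and the jasmonate genes are lowest there (JAZ10 at 1.38 CPM).

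The other genes among the 15 with the lowest ratios are not on the defence list. AIG1, induced by bacterial avirulence, stood at 11.4 CPM in WT and 0.131 CPM in p5cs1-4 (99 and 2 reads), a ratio of 87.0 (23.5 to 728). PCR1, a small membrane protein of cadmium resistance, stood at 16.2 and 0.196 CPM, a ratio of 82.6 (27.7 to 405), and the ankyrin gene ANK at 10.3 and 0.196 CPM, a ratio of 52.7 (17.5 to 261). Each of these 3 had 3 reads or fewer in p5cs1-4, so only the order of the fold is known. The wall-associated kinase WAK3 stood at 17.57 and 1.83 CPM (9.61-fold lower, 6.39 to 14.9) and its neighbour WAK1 at 78.5 and 15.2 CPM (5.18-fold lower, 4.46 to 6.04). FRK1, a receptor-like kinase induced by bacterial flagellin, stood at 15.96 and 2.87 CPM, 5.55-fold lower (3.93 to 7.98). ECS1 stood at 174 and 34.4 CPM, 5.04-fold lower (4.56 to 5.58), and HR4, a homologue of the mildew resistance gene RPW8, at 37.7 and 12.1 CPM, 3.12-fold lower (2.59 to 3.75). The 15 also held ABCG40, an ABA importer, at 19.98 and 4.38 CPM (4.57-fold lower, 3.43 to 6.15), BZO2H3, a bZIP transcription factor, at 15.6 and 4.31 CPM (3.62-fold lower, 2.68 to 4.94), and P5CS1. AIG1, PCR1, ANK, WAK3, FRK1, ABCG40 and BZO2H3 passed the floor through the WT library alone, which fixed their direction.

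Part of the jasmonate genes were higher in p5cs1-4. Of 26 genes on that list 24 passed the floor, and 10 were at least 2-fold higher and 0 lower, where 1.8% of all genes were higher. The median log2 ratio was 0.58, with 18 of 24 above 0 and 6 below. Of all 16348 genes past the floor, 7860 were above 0 and 8488 below. The summed level of the list was 2399.45 CPM in WT and 2399.64 CPM in p5cs1-4. JAZ5, JAZ7, JAZ10 and TAT3 passed the floor through the p5cs1-4 library alone, which fixed their direction, so the count and the median describe the 24 and support nothing more. The repressor gene JAZ10 (AT5G13220, chromosome 5, 4218786 to 4221077, plus strand) had the highest ratio of any gene the rule allowed to be named, at 1.38 CPM in WT (12 reads) and 19.99 CPM in p5cs1-4 (306 reads), 14.5-fold higher (8.18 to 28.4). Its relatives JAZ5, at 4.13 and 16.6 CPM (4.01-fold, 2.82 to 5.86), and JAZ2, at 16.1 and 55.4 CPM (3.45-fold, 2.88 to 4.15), followed. JAZ1 was 2.48-fold higher (2.21 to 2.78), JAZ6 2.13-fold (1.80 to 2.52) and JAZ7 3.47-fold (2.13 to 5.98). JAZ3 was near equality and JAZ9 lower, with log2 ratios of 0.17 and -0.62.

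The enzymes of synthesis were divided. The lipoxygenase genes LOX3 (AT1G17420, chromosome 1, 5977323 to 5981521, plus strand), at 12.3 and 40.4 CPM (3.29-fold higher, 2.68 to 4.08), and LOX4, at 26.6 and 76.8 CPM (2.88-fold, 2.50 to 3.33), were higher. AOC3, an allene oxide cyclase gene, stood at 8.50 and 30.1 CPM, 3.54-fold higher (2.76 to 4.58). LOX2 and AOS, which serve the first steps in leaves, were on the other side, with LOX2 at 470 and 306 CPM and AOS at 283 and 216 CPM. OPR3, at 56.5 and 78.7 CPM, and JAR1, which joins jasmonate to isoleucine, at 45.6 and 63.2 CPM, stayed short of 2-fold. Among outputs, the tyrosine aminotransferase gene TAT3 was 2.84-fold higher (1.70 to 5.02), while VSP1, VSP2, THI2.1 and CORI3 had log2 ratios of 0.85, -0.45, 0.69 and -0.05. The genes that were higher were thus mainly JAZ repressors and minor forms of the enzymes. The promoters of JAZ10 and LOX3, a repressor and an enzyme, are shown because both hold 1 match to CACATG, a site bound by MYC2, the factor that JAZ proteins hold back. It is read here on the opposite strand as CATGTG, in capitals, and begins 65 bases before the annotated start in both.
JAZ10, chr5:4218536-4218785, plus strand: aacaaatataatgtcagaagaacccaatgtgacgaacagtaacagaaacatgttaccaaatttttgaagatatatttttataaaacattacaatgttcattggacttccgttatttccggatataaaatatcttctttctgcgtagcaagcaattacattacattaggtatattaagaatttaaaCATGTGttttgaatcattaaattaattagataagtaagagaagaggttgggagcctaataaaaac
LOX3, chr1:5977073-5977322, plus strand: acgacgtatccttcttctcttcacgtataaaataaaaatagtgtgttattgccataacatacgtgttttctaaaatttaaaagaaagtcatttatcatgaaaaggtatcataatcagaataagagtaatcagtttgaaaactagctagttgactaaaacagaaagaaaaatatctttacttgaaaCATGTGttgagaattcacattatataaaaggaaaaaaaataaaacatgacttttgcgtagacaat

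CACATG on either strand stood in 7 of 24 promoters of the jasmonate list (29.2%), in 14.9% of those of higher genes, 10.3% of those of lower genes and 10.8% of all 32708. The G-box CACGTG, another site of MYC2, stood in 4 of the 24 (16.7%) and in 5.85% of all. The letters CACATG and the genes shown were chosen after the values were seen.

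Across treatments JAZ10, JAZ2, AOC3 and LOX3 had the lowest of their 9 levels in the WT library labelled release. JAZ10 stood at 27.2, 17.0 and 1.38 CPM in the WT control, labelled stress and labelled release. The mutant levels were 36.3, 11.5 and 19.99 CPM. LOX3 stood at 359 CPM in the WT control, 110 in labelled stress and 12.3 in labelled release, against 233, 20.9 and 40.4 CPM in p5cs1-4. In aba2-1 JAZ10 stood at 8.19, 37.3 and 4.21 CPM. In the control pair 0 of 24 list members were at least 2-fold higher in p5cs1-4 and 1 was lower, where 3.82% and 2.69% of all genes were. In the labelled stress pair 5 of 24 were higher and 5 lower, where 5.94% and 6.53% of all genes were. Whether the pairs differ was not tested.

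Outside these groups, the highest ratios belonged to genes of several functions. HAK5, the high-affinity potassium transporter of roots, stood at 1.61 CPM in WT and 20.6 CPM in p5cs1-4, 12.8-fold higher (7.52 to 23.7). SRO5 stood at 2.76 and 25.6 CPM, 9.29-fold higher (6.15 to 14.7). Its annotated gene overlaps that of P5CDH, which carries the second step of proline breakdown, on the opposite strand by 905 bases, and without strand the reads of the overlap cannot be assigned. P5CDH itself stood at 204 and 205 CPM. Genes of redox balance were MSRB7, a methionine sulfoxide reductase, at 4.13 and 27.5 CPM (6.65-fold higher, 4.73 to 9.63), MDHAR, a monodehydroascorbate reductase, at 4.02 and 19.3 CPM (4.81-fold, 3.38 to 7.04), and RRTF1, a redox-responsive transcription factor, at 4.59 and 19.1 CPM (4.17-fold, 2.99 to 5.95). The 20 genes of the antioxidant list gave no such group, as 19 passed the floor and 0 of them differed 2-fold, with a median of -0.23. The metacaspase gene MC7 was 5.53-fold higher (3.398 to 9.55) and GA2OX6, which inactivates gibberellins, 4.75-fold (3.34 to 6.95). HMT-1, which makes methionine from homocysteine, COBL8, HVA22E and the sucrose-phosphatase gene SPP1 were 4.42-, 4.21-, 4.18- and 3.82-fold higher. HAK5, SRO5, MSRB7, MDHAR and RRTF1 were below 5 CPM in WT. Such genes passed the floor through p5cs1-4 alone, which fixed their direction, so they describe the highest ratios and support nothing more.

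**Figure D3:**
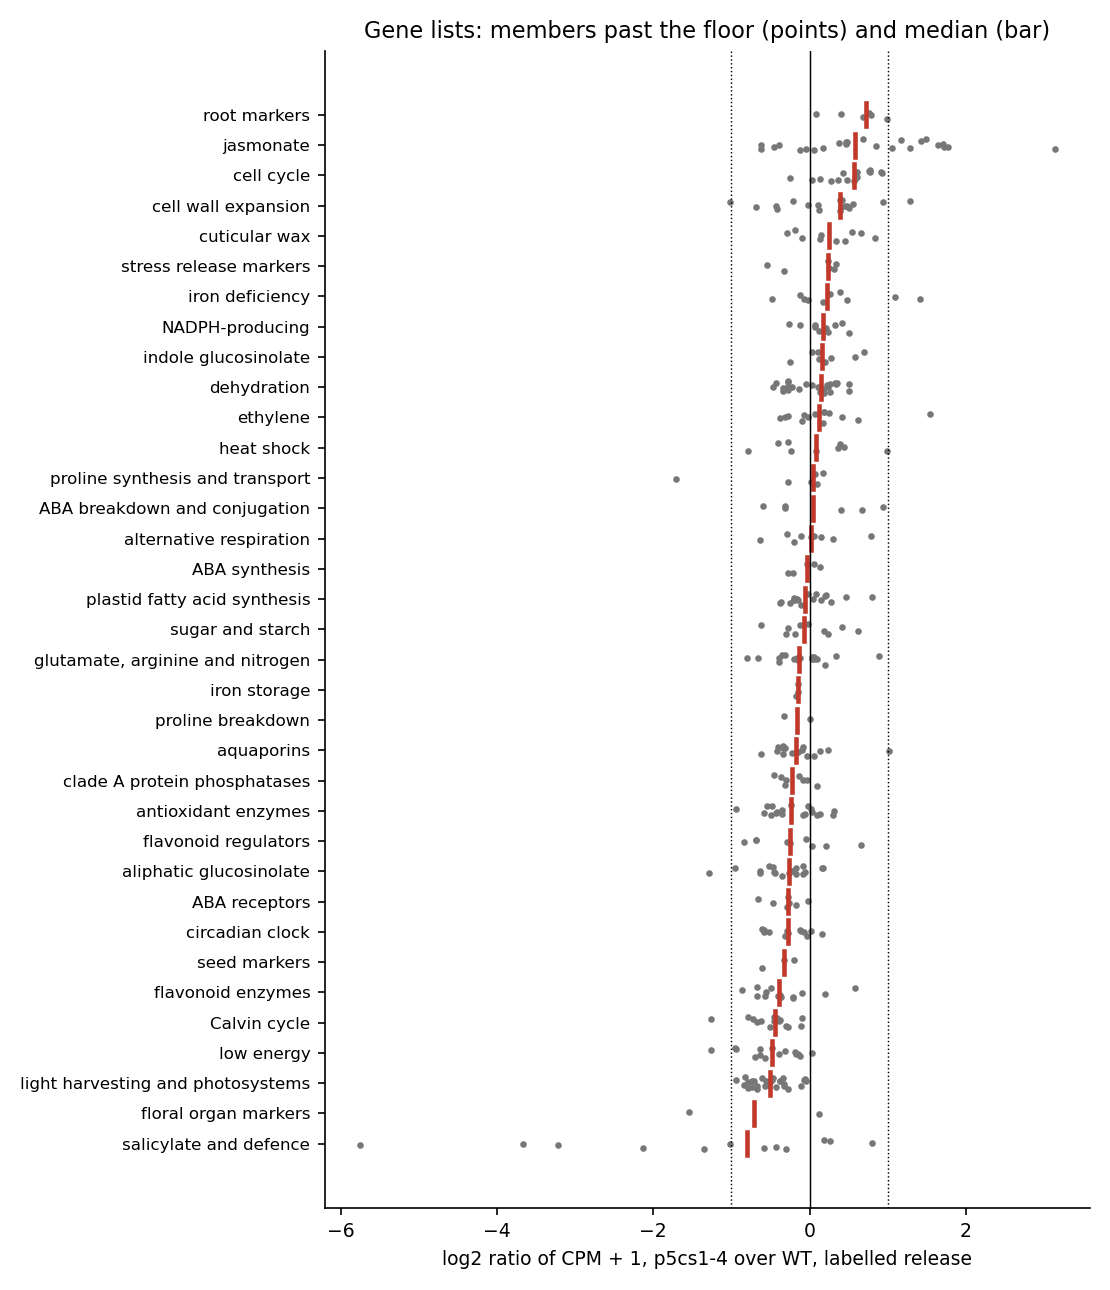
Log2 ratio of CPM + 1 of p5cs1-4 over WT, labelled release (x axis), for the members of each gene list past the floor (grey points) with the list's median (red bar), ordered by median; dotted lines mark 2-fold. The salicylate and defence list has the lowest median (-0.80) and the widest spread, the jasmonate list reaches farthest to the right, and the dehydration list is narrow about 0.15.

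Drought and ABA transcripts did not differ in the same way. All 28 dehydration genes passed the floor and 0 of them were 2-fold apart, with log2 ratios between -0.47 and 0.51 and a median of 0.15. RD29B, for example, stood at 1254 CPM in WT and 1413 CPM in p5cs1-4, and COR15A at 242 and 200 CPM. The 7 ABA receptors past the floor had log2 ratios between -0.66 and -0.02, and 7 of the 8 clade A phosphatases past it, which the receptors inhibit, were below 0. In the labelled stress pair, by contrast, 11 of 26 dehydration genes were at least 2-fold higher in p5cs1-4 (5.94% of all genes were), and whether the pairs differ was not tested.

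No other gene of proline metabolism past the floor reached 2-fold. P5CS2, the second synthase gene, stood at 424 CPM in WT and 478 CPM in p5cs1-4, 1.13-fold higher (1.09 to 1.17). P5CR, the reductase of the last step of synthesis, stood at 229 and 190 CPM, and DELTA-OAT, which forms the same intermediate from ornithine, at 92.1 and 93.4 CPM. The transporters PROT1 and PROT2 had log2 ratios of 0.09 and 0.07. PRODH1 was 1.27-fold lower (1.06 to 1.51).

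Nuclear photosynthesis genes were slightly lower as a group, with none of the photosystem list past 2-fold. All 29 light-harvesting and photosystem genes were below 0, with a median of -0.51, from -0.94 for LHCA1 (914 and 476 CPM) to -0.05 for ATPC1 (485 and 470 CPM). All 16 Calvin cycle genes were below 0 as well, with a median of -0.44. Of all 16348 genes past the floor, 8488 were below 0 and 7860 above. CP12-2, a small regulator of the cycle, was the 1 of them at least 2-fold lower, at 163 and 67.3 CPM (2.42-fold, 2.23 to 2.63). The photosystem median was -0.23 in the control pair and -1.07 in the labelled stress pair, where 19 of 29 were at least 2-fold lower (6.53% of all genes were). The green-tissue markers were taken from the gene lists themselves, LHCA1 among them, so their summed level is no separate measure. The part of green tissue in the result was not tested. The 6 root markers past the floor were all above 0 (median 0.73, COBL9 the highest), and their part in the ratio of HAK5 was not tested. COBL9, at 3.10 CPM in WT and 7.19 CPM in p5cs1-4, passed the floor through p5cs1-4 alone, which fixed its direction. With no floor the median of the root markers was 0.38.

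Smaller groups had few members past 2-fold. Of the cell cycle genes past the floor, 15 of 16 were above 0, with a median of 0.58, and 0 reached 2-fold by the rule. Among all 16348 genes past the floor, 7860 were above 0 and 8488 below. PCNA1, the sliding clamp of DNA replication, stood at 3.45 and 7.38 CPM, and KN, the syntaxin of the cell plate, at 13.1 and 23.1 CPM. A gene below 5 CPM in WT, as PCNA1 and bHLH39 were, passed the floor through p5cs1-4 alone, which fixed its direction. SEP3 passed it through WT alone. In iron deficiency the transcription factor genes bHLH39, at 1.26 and 5.03 CPM (3.98-fold higher, 2.11 to 8.31), and bHLH38, at 6.20 and 14.4 CPM (2.33-fold, 1.72 to 3.20), were higher, while bHLH101 and OPT3 had log2 ratios of -0.12 and -0.48. Of the low-energy genes, 14 of 15 were below 0, and the raffinose synthase family gene DIN10, at 365 and 151 CPM, was 2.41-fold lower (2.28 to 2.54). MAM1, of aliphatic glucosinolate synthesis, stood at 356 and 146 CPM, 2.44-fold lower (2.31 to 2.58). ACO1 of ethylene synthesis was 3.67-fold higher (2.33 to 6.04) and XTH18 of the cell wall 2.66-fold (2.00 to 3.59), while EXPA5 was 2.097-fold lower (1.75 to 2.52). Flavonoid enzymes had a median of -0.38 and 0 of 14 past 2-fold, though 12 of 14 were at least 2-fold higher in the labelled stress pair (5.94% of all genes were). The floral gene SEP3 was 3.77-fold lower (2.48 to 5.85), at 8.38 and 2.22 CPM, with AG at 0 reads in both libraries. Seed markers were low, and the 3 of 10 past the floor had a median of -0.33.

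Of the genes higher in p5cs1-4, 35 carry locus tags of the organelle genomes, a grouping made after the values were seen. Of 133 plastid-encoded loci 39 passed the floor, and 23 of the 39 were at least 2-fold higher (1.8% of all genes were) and 0 lower, with a median of 1.18. Of 146 mitochondrion-encoded loci 18 passed it, and 12 of the 18 were higher and 0 lower, with a median of 1.41. Any locus below the floor in WT passed it through p5cs1-4 alone, which fixed its direction. The counts and medians thus describe the loci past the floor and support nothing more. Plastid loci summed to 2357 CPM in WT and 4636 CPM in p5cs1-4, and mitochondrial loci to 355 and 962 CPM. ATCG00480 stood at 13.3 CPM in WT and 43.0 CPM in p5cs1-4, 3.23-fold higher (2.65 to 3.97), and ATMG00020 at 71.5 and 177 CPM in WT and aba2-1 and at 262 CPM in p5cs1-4. The order of genotypes was not the same in every treatment: mitochondrial loci summed highest in p5cs1-4 in all 3 treatments, but plastid loci summed higher in aba2-1 than in p5cs1-4 in labelled stress and labelled release. RNA was selected by its poly(A) tail, which plant organelle transcripts mostly lack, and the share of them that each library kept was not tested.

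**Figure D4:**
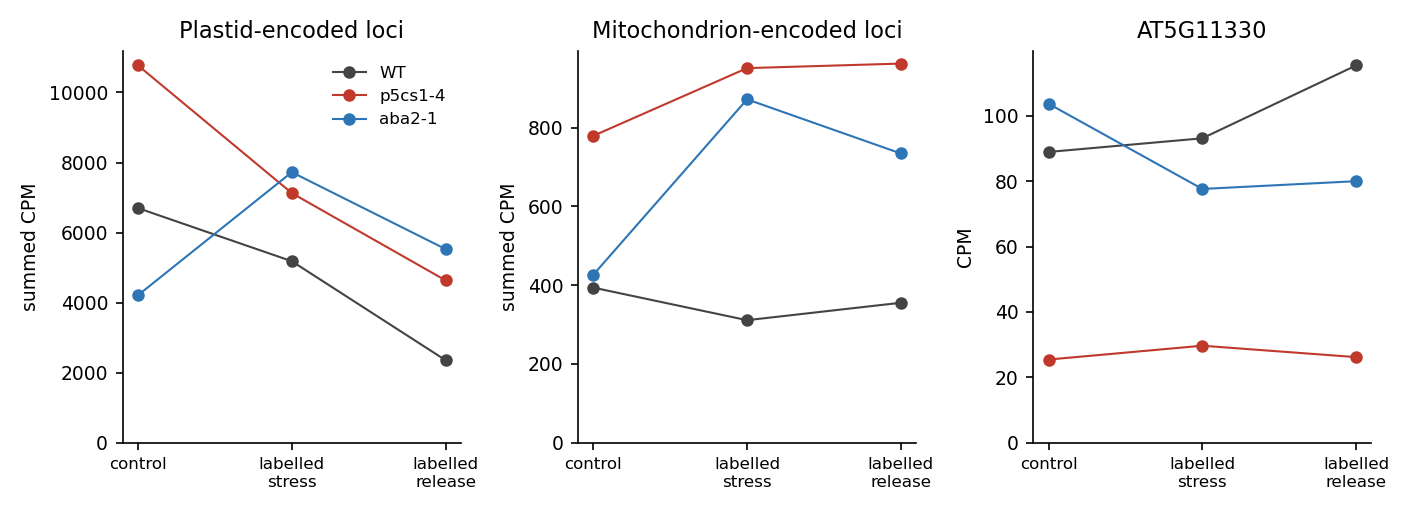
Summed CPM of plastid-encoded loci (left) and mitochondrion-encoded loci (middle), and CPM of the nuclear gene AT5G11330 (right), by treatment label (x axis), with 1 point for each library and lines that join a genotype. In labelled release the organelle sums are lowest in WT (2357 and 355 CPM). AT5G11330, chosen for being lower than WT in every pair, lies between 25.5 and 29.7 CPM in the p5cs1-4 libraries. It lies at 77.6 CPM or more in all others.

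The other genotype pairs, which share no library with this one, were used as the only further look at the genotype. Of the 294 genes higher in labelled release, 68 were also at least 2-fold higher in the control pair and 98 in the labelled stress pair. These are 23.1% and 33.3% of the 294, where 3.82% and 5.94% of all genes were higher in those pairs. They are 10.97% and 9.99% of the genes higher in those pairs, where 1.8% of all genes were higher in labelled release. Of the 218 lower genes, 31 were also lower in the control and 65 in labelled stress. These are 14.2% and 29.8% of the 218, where 2.69% and 6.53% of all genes were lower in those pairs. They are 7.09% and 6.02% of the genes lower in those pairs, where 1.33% of all genes were lower in labelled release. The opposite change was seen for 5 and 17 of the higher genes and for 14 and 22 of the lower genes. Over genes past the floor in both pairs the log2 ratios had a Pearson r of 0.28 with the control (15272 genes) and 0.28 with labelled stress (15589 genes), given as a description since genes share libraries, depth and scaling. Most differences of labelled release were thus below 2-fold, or below the floor, in the other treatments.

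**Figure D5:**
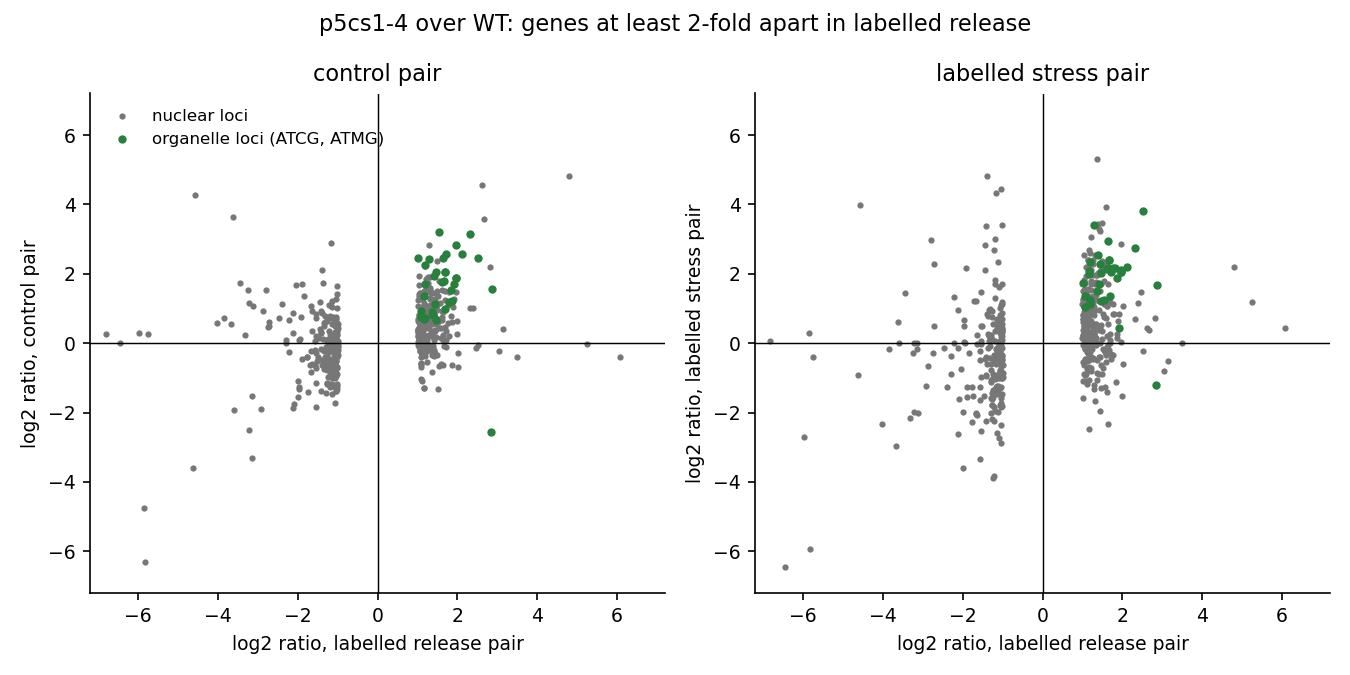
Log2 ratio of CPM + 1 of p5cs1-4 over WT in the control pair (left) and the labelled stress pair (right), y axis, against that in labelled release (x axis), for the 512 genes at least 2-fold apart in labelled release; green points are organelle loci. Organelle loci lie mostly in the upper right of both panels, while nuclear genes scatter above and below 0.

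A small set did differ at least 2-fold the same way in all 3 pairs. It held 40 genes higher and 19 lower, and with loci of mostly shared reads set aside 28 and 15, of which 13 and 15 are nuclear. In labelled release, control and labelled stress, 1.8%, 3.82% and 5.94% of all genes were higher and 1.33%, 2.69% and 6.53% lower. The genes past the floor in all 3 pairs were not counted, so the set has no share beside it and is a description only. The most even of the set was AT5G11330 (chromosome 5, 3617138 to 3618913, minus strand), annotated as an FAD/NAD(P)-binding oxidoreductase family protein. It stood at 89.0, 93.1 and 115 CPM in the WT control, labelled stress and labelled release, and its 3 levels in aba2-1 were 104, 77.6 and 80.0 CPM. The p5cs1-4 levels were 25.5, 29.7 and 26.2 CPM, below every WT and aba2-1 level. The set required at least 2-fold from WT in all 3 pairs, so its distance from WT was largely fixed by the choice. How many of all genes separate the genotypes in this way was not counted. PSBX, a subunit of photosystem II, stood at 2655, 2253 and 1037 CPM in WT and 1190.4, 741 and 431 CPM in p5cs1-4. DIR1, a lipid transfer protein of systemic resistance, stood at 168, 116 and 27.2 CPM in WT and 63.2, 23.61 and 9.60 CPM in p5cs1-4. On the higher side, MSL9, a mechanosensitive channel of roots, stood at 2.33, 4.60 and 4.59 CPM in WT and 6.89, 21.6 and 13.7 CPM in p5cs1-4, and the isocitrate lyase gene ICL at 4.89, 8.81 and 66.4 CPM in WT and 11.6, 107 and 187 CPM in p5cs1-4.

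An additive model of treatment and genotype over the 9 libraries asked which genes differ between p5cs1-4 and WT whatever the treatment. With edgeR's quasi-likelihood test and Benjamini-Hochberg adjustment, 0 of 19600 genes (0%) passed an adjusted p of 0.05, while 2107 had an unadjusted p under 0.05. DESeq2 on the same libraries called 157 genes (0.801%), 81 higher and 76 lower. AT5G11330 had a log2 fold of -1.87 ± 0.19 and an edgeR adjusted p of 0.36. The value after ± is an approximate SE, worked back as the size of the log2 fold over the square root of the test's F statistic. Among genes with a symbol the smallest edgeR adjusted p was 0.38, shared on the higher side by MSL9 (log2 fold 1.79 ± 0.27), HMT-1 (1.55 ± 0.29), MSR2 (0.74 ± 0.14), PYR6 (0.80 ± 0.17) and ADR1 (0.77 ± 0.16). On the lower side it was shared by MAM1 (-1.20 ± 0.23), CAO, a part of the chloroplast signal recognition particle (-1.17 ± 0.24), PUB26 (-1.16 ± 0.21), COL3 (-0.94 ± 0.18) and UGT74F2, a glucosyltransferase of salicylate (-0.86 ± 0.15). The model takes the genotype difference as equal in every treatment, and whether any gene departs from this was not tested. The edgeR adjusted p of the genotype difference was 0.49 for PR1 and 0.64 for JAZ10.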

How the data were processed

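PolyA RNA of whole seedlings was sequenced in 9 libraries, per the labels' protocols with oligo-dT selection, random priming and 18 PCR cycles without molecular identifiers. CASAVA 1.6 and TAIR10 appear in the submitters' processing notes without a role; aligner, counter and use of strand are not given in the sources used here. Per the file headers, each table of 33518 genes holds estimated counts of reads as deposited, in which shared reads are split between genes. The deposited tables also hold RPKM, reads scaled by the authors to gene length and library, and the fraction of each gene's reads shared with other places, per the file headers. Of all locus tags, 97.6% matched the RefSeq annotation of TAIR10.1, from which names, coordinates and promoters (250 bases) were read.

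Estimated counts were rounded and scaled to CPM with TMM factors from edgeR 4.0.16. Log2 ratios were taken of CPM + 1, and called at 2-fold with 5 CPM in either library. Folds have exact 95% conditional intervals; a count of 0 was set to 3. The additive model (treatment and genotype, 4 residual degrees of freedom; genes averaging 1 CPM or more) used edgeR's quasi-likelihood test, with DESeq2 1.42.0 as the alternative, in R 4.3.3, and was tested on simulated data. Alternatives were pseudocount, floor, fold, scaling, RPKM, reads that map to 1 place, and libraries left out. Nuclear genes alone and genes with mostly unshared reads were added after seeing the data. The text names P5CS1, PRODH1 and RAB18, the 15 highest and 15 lowest ratios among genes with a symbol and at most 0.5 of reads shared, up to 4 examples per list, and, from the model, 5 genes each way by adjusted p; other genes named were chosen after their values were seen. The comparison and the 35 gene lists were chosen with earlier results of these data known.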

Additional observations from a re-analysis of the deposited data

Results flagged for a closer look

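The genes below were at least 2-fold apart in labelled release in one direction and at least 2-fold apart in another treatment in the opposite one. With 1 library per group, none of these differences between treatments was tested.

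P5CS1 had a log2 ratio of p5cs1-4 over WT of -1.71 in labelled release and 1.22 in labelled stress. Of the defence genes, ACD6 had -3.22 in labelled release and 1.16 in the control, and PR2 -1.02 and 1.42. ANK, which is not on the defence list and had few reads in p5cs1-4, had -3.24 in labelled release and 1.54 in the control. AIG1 had -3.45 in labelled release and 1.45 in labelled stress. Of the jasmonate genes, LOX3 had 1.64 in labelled release and -2.34 in labelled stress, JAZ6 1.05 and -1.09, and JAZ7 1.43 and -1.96. TAT3 had 1.17 in labelled release and -1.28 in the control. GA2OX6 had 2.00 in labelled release and -1.52 in labelled stress, and RRTF1 1.85 and -1.13. The iron deficiency factor gene bHLH38 had 1.10 in labelled release and -1.08 in the control.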

How the results depend on the processing

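The 294 higher and 218 lower calls became 1090 and 1071 at 1.5-fold, 65 and 58 at 3-fold, 495 and 328 with no floor and 76 and 89 with a floor of 20 CPM. Under the other 7 settings each stayed within 1.5 times its count, with 377 and 166 at total scaling as the widest split. No gene named by the rule and 2-fold apart changed its sign, though EXPA5 moved from -1.02 to -0.94 at total scaling and with RPKM. RAB18, near equality, moved from -0.05 to 0.03 at total scaling and 0.02 with RPKM. With a floor of 20 CPM, fewer members entered and list medians moved to -0.13 for proline synthesis and transport, 0.40 for ABA breakdown, 0.12 for cell wall expansion and -1.36 for salicylate and defence. With no floor they moved to -0.13 for the phosphatases, -0.033 for floral markers and 0.02 for seed markers. Total scaling gave 0.23 for dehydration, -0.42 for the photosystems and -0.36 for the Calvin cycle, and RPKM gave -0.44 and -0.37 for the latter 2. The medians of proline breakdown, alternative respiration, ABA synthesis, fatty acid synthesis and sugar, all near 0, also crossed it. Reads that map to 1 place gave -0.33 for the release markers, 5 of which share all of their reads. In the additive model DESeq2 called 157 genes and edgeR without aba2-1 called 9, against 0, and the cause was not tested. No paired analysis was possible because each group has 1 library, so the groups share fewer than 2 replicate numbers, and only the additive model compares the genotypes within treatments. Depth limits genes of few reads, and the fold of LURP1, PR1 and PCR1 also moved with the pseudocount.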

Other observations

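A pair of genes without a symbol, singled out after their values were seen, were high in some libraries and near absent in others. AT3G28915, an uncharacterized protein, stood at 157, 0.789 and 198 CPM in the WT control, labelled stress and labelled release, at 4.89, 1.21 and 2.42 CPM in p5cs1-4, and at 147, 0.0937 and 0.312 CPM in aba2-1. AT1G67105, annotated as a non-coding RNA, stood at 48.9, 3.95 and 190 CPM in WT, at 3.12, 1.62 and 6.66 CPM in p5cs1-4, and at 101, 0.843 and 3.90 CPM in aba2-1. Both were thus high in the same 3 libraries, the WT control, WT labelled release and aba2-1 control. AT2G25510, an uncharacterized protein, stood at 154, 11.1 and 6.47 CPM in p5cs1-4, against 102, 60.0 and 120 CPM in WT. In p5cs1-4 it was thus highest in the control, like the defence genes LURP1 and WRKY70. AT2G41090, of the EF-hand family, stood at 166, 22.3 and 1.63 CPM in p5cs1-4 and at 140, 102 and 25.3 CPM in WT.

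The neighbouring loci AT1G67860 and AT1G67865, both uncharacterized, were lower in p5cs1-4 in all 3 pairs. AT1G67860 stood at 95.01, 63.9 and 113 CPM in WT and at 31.6, 15.5 and 27.6 CPM in p5cs1-4, and AT1G67865 at 163, 52.9 and 23.4 CPM and at 71.5, 7.96 and 10.06 CPM.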
